A study of Mus musculus with 12 samples.

Results

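Regulatory T cells, a CD4 lineage that holds immune responses in check, were profiled on arrays in mice of the diabetes-prone NOD strain and in NOD.Drak2-/- mice, in which the gene for the kinase Drak2 is disrupted. The 10 genes described here are interferon effectors: Ifit1, Ifit2, Ifit3, Isg15, Rsad2, Oas1a, Oas2, Oas3, Oasl1 and Oasl2. They were chosen by symbol, each from its brightest row in the deposited log2 table, and all 10 had a row among the 19505 genes tested. Each genotype had 6 arrays of 1 mouse each. The NOD arrays carry replicate numbers 1 to 6, and those of NOD.Drak2-/- the numbers 1 to 5 and 7. Per the labels, the cells came from lymph nodes of females aged 4 to 8 weeks and were sorted as CD4+ CD8- CD25+ CD45RBlo. All mice share the NOD background, and the sources used here do not say which part of the Drak2 gene is disrupted, or in which cells.

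Interferons bind receptors that activate STAT and IRF transcription factors, and these switch on effector genes through a DNA element called the interferon-stimulated response element, or ISRE. The IFIT proteins bind viral RNA and block its translation, ISG15 is a ubiquitin-like protein that is attached to other proteins, and viperin, encoded by Rsad2, makes a nucleotide that ends viral RNA chains. Oligoadenylate synthetases, the OAS enzymes, sense double-stranded RNA and make short oligoadenylates that activate the nuclease RNase L. In T cells as in most other cells these genes are kept low and are induced when interferon is present.

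The promoters of most effectors hold the core of this element. The ISRE core was searched as GAAANNGAAA on both strands, in the 250 bases before and the 50 after each gene start in RefSeq (GRCm38.p6). Of the 10 genes 9 had such a window, and 6 of these held at least 1 match, whereas 3.99% of all 27025 genes with a window did. The 160 bases that end just before the gene start are shown for the 6 because they place the matches, which are in capitals, and the sequence is written 5′ to 3′ on the gene's strand.
Isg15: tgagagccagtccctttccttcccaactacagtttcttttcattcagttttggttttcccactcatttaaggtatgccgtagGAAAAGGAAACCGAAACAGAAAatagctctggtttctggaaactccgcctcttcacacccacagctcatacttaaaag
Ifit1: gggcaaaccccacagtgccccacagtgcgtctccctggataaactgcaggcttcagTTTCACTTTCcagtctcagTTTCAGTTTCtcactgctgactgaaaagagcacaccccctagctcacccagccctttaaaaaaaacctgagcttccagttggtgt
Ifit3: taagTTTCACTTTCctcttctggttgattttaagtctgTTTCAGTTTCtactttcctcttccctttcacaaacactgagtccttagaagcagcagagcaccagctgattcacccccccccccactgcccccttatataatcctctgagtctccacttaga
Rsad2: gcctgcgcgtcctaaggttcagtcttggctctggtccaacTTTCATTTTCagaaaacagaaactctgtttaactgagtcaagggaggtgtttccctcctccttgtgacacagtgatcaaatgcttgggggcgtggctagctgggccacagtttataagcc
Oas1a: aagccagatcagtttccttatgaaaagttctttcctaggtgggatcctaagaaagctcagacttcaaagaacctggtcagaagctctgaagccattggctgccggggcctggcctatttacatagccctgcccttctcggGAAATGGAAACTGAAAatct
Oas3: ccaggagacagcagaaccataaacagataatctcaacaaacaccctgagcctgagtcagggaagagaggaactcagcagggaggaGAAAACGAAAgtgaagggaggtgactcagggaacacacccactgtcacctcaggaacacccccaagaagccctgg
In order, they lie at chr4:156200819-156200978 (minus strand), chr19:34640729-34640888 (plus), chr19:34583369-34583528 (plus), chr12:26456453-26456612 (minus), chr5:120907526-120907685 (minus) and chr5:120777660-120777819 (minus). Isg15 held 3 overlapping matches, the nearest starting 66 bases before the gene start, and Oas1a held 2 overlapping matches, the nearest at 14 bases. Ifit1 and Ifit3 held 2 separate matches each, from 85 bases before the start in Ifit1 and from 122 in Ifit3, and Rsad2 and Oas3 held 1 each. No match was found in the windows of Ifit2, Oasl1 and Oasl2. The related element TTCNNNGAA, which STAT dimers bind and whose 2 strands read alike, was in windows of Ifit2 and Oas1a and in 8.3% of all 32851 windows, and in Oas1a it did not overlap the capitals. A match describes the letters of the reference only, which is not the NOD genome.

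The sorted cells carried most regulatory T cell markers that were measured. Of the regulatory T cell markers measured, 8 of 9 had a mean above the brightest antigenomic background row, whose mean was 5.87. Antigenomic probes match nothing in the genome and are grouped by GC count. This row is the brightest of 23, so a gene at or below it, called in the background range here, may still be detected. Izumo1r averaged 11.73 in NOD and 11.84 in NOD.Drak2-/-, and Ctla4 9.81 and 9.60. The receptor gene Il2ra, which encodes CD25, was in the background range at 4.82 and 5.00. Foxp3, Nrp1 and Folr4 were also on the list of 12 markers but had no row among the genes analysed. Stk17b, which encodes Drak2, averaged 10.52 ± 0.21 in NOD and 10.25 ± 0.15 in NOD.Drak2-/- (log2, SD, n = 6 each; difference -0.27, adjusted p = 0.517 in limma), so it does not check single labels. Array medians over all genes ran from 5.18 to 5.34. The background rows were brightest in NOD.Drak2-/- replicates 1 and 2, at 6.52 and 6.77, against 5.51 to 6.07 in the other arrays.

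The effectors were dim in both genotypes, and no difference between the genotypes passed the test. Each of the 10 genes had a mean over all arrays at or below the brightest background row, as did 58.3% of all genes. Detection was not judged by GC count, so these genes may still be detected. Their means ranked from the 19.2 percentile of all genes (Rsad2) to the 57.6 percentile (Ifit1). Of their 120 single values, 12 lay above the array's own brightest background row. Of the 10 genes 0 passed an adjusted p of 0.05 in limma (0.0205% of all genes did), with adjusted p-values from 0.512 to 0.973. At an unadjusted p under 0.05 there was 1 gene, Isg15, with a positive difference (3.74% of all genes met that level with a positive difference, 5.69% with a negative one and 9.43% in either direction). The 2 genotypes overlapped for all 10 genes (0.513% of all genes did not overlap). A positive difference, NOD.Drak2-/- minus NOD, was found for 8 of 10 genes and for 45.9% of all genes. With each array centred on its median 9 of 10 were positive, and 4 of 10 without the 2 arrays of brightest background, an alternative chosen after the data had been seen. The median difference was 0.07 for the 10 genes and -0.02 for all genes (log2). The median of the 10 ran from 0.037 without NOD replicate 4 to 0.19 without NOD.Drak2-/- replicate 7, and was -0.017 without the 2 arrays of brightest background. In these bulk samples fewer cells that carry a transcript and less of it per cell cannot be told apart.

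**Figure D1:**
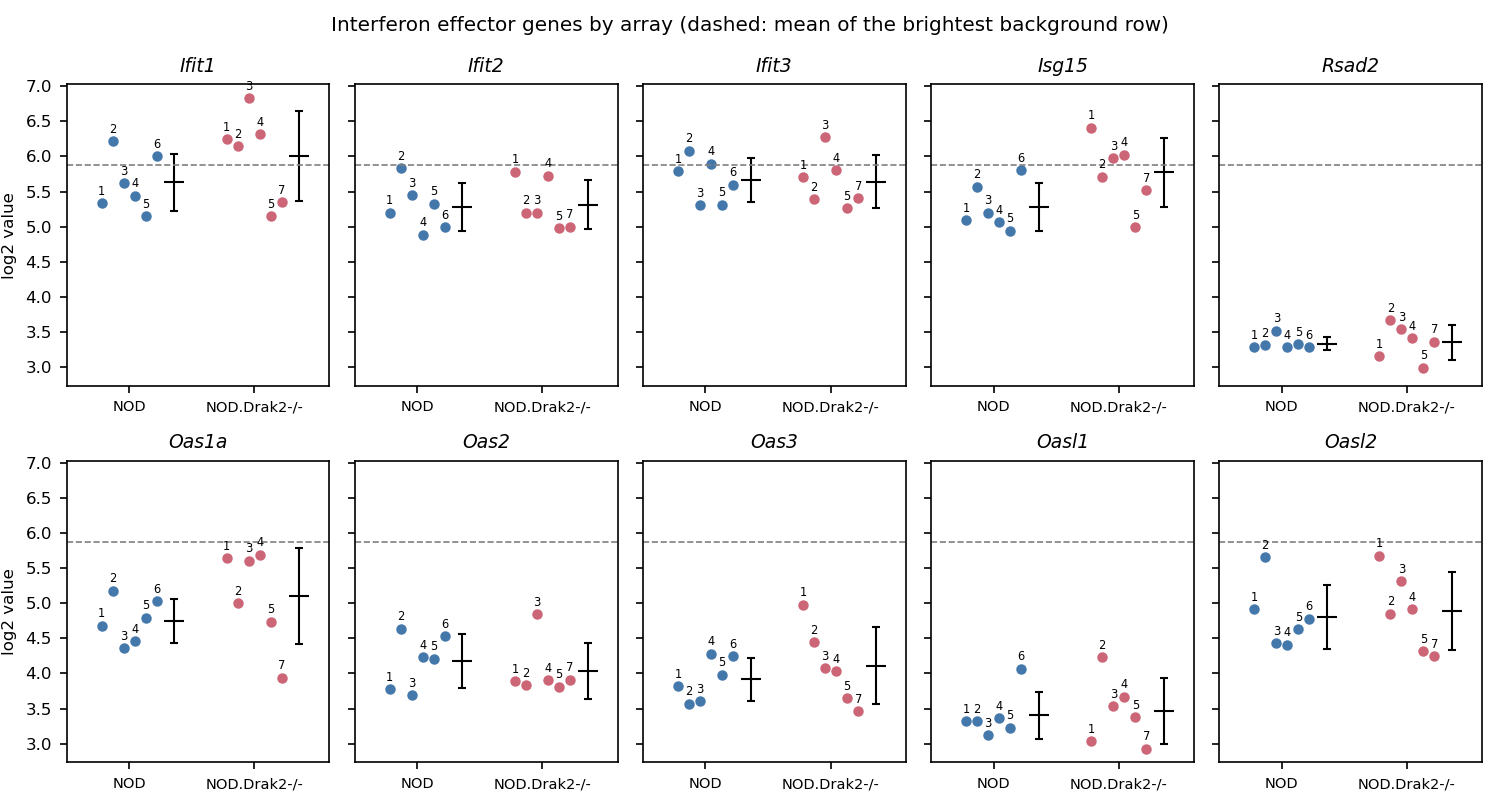
Log2 value of the 10 effector genes in each array, by genotype, with replicate numbers beside the points; bars are mean ± SD (n = 6) and the dashed line is the mean of the brightest background row, 5.87. The genotypes overlap in every panel, and NOD.Drak2-/- replicate 5 is among the 3 lowest arrays in 7 panels and replicate 7 in 4.

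Isg15, the ubiquitin-like modifier, showed the greatest positive difference of the 10. In NOD replicates 1 to 6 its log2 values were 5.09, 5.57, 5.20, 5.07, 4.94 and 5.81. In the NOD.Drak2-/- replicates, in the same order with 7 last, they were 6.41, 5.71, 5.97, 6.02, 4.99 and 5.52. NOD.Drak2-/- replicates 1, 3 and 4 lay above every NOD array, and replicate 5 lay among the lowest, so the genotypes overlapped. The means were 5.28 ± 0.34 and 5.77 ± 0.49 (SD, n = 6 each), a difference of 0.49 (95% interval 0.05 to 0.94) or 1.41-fold, above the NOD mean in 5 of 6 arrays. Its adjusted p was 0.512 in limma, from an unadjusted 0.0319, with p = 0.0714 in a two-sided exact permutation test over the 12 arrays. Without NOD.Drak2-/- replicate 1 the difference was 0.37 (adjusted p = 0.641 in limma), and without both replicates 1 and 2 it was 0.35. Its unadjusted p was above 0.05 when any of NOD replicates 1, 3, 4 and 5, or any of NOD.Drak2-/- replicates 1, 3 and 4, was left out.

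The IFIT genes, which lie in 1 cluster on chromosome 19, had differences from -0.02 to 0.38, and 0 of the 3 passed the test. Ifit1, whose product binds viral RNA that lacks a host-type cap, had NOD values of 5.34, 6.22, 5.62, 5.44, 5.15 and 6.01 in replicates 1 to 6. Its NOD.Drak2-/- values were 6.25, 6.14, 6.83, 6.32, 5.14 and 5.34 in replicates 1 to 5 and 7. NOD.Drak2-/- replicates 1, 3 and 4 were above all NOD arrays, while replicate 5 was the lowest of the 12. The means were 5.63 ± 0.41 and 6.005 ± 0.64 (SD, n = 6 each; difference 0.38, 95% interval -0.18 to 0.93, adjusted p = 0.655 in limma; exact permutation p = 0.255).

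Ifit2 and Ifit3, whose products form complexes with other IFIT proteins, had differences close to 0. Ifit2 ran from 4.89 through a median of 5.26 to 5.83 in NOD and from 4.98 through 5.20 to 5.78 in NOD.Drak2-/-, so that the NOD range enclosed the other. Its difference was 0.03 (95% interval -0.35 to 0.42). Ifit3 ran from 5.31 through 5.69 to 6.08 in NOD and from 5.26 through 5.56 to 6.28 in NOD.Drak2-/-. Its difference was -0.02 (95% interval -0.41 to 0.36), a sign that turned when arrays were centred on their medians (0.043). The intervals of these 2 genes leave room for changes of up to about 0.4 either way on the log2 scale. Ifit3 and Ifit3b are close copies, and the sources used here do not say how the array's probes treat such copies.

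Rsad2, the viperin gene, gave no signal clear of background. It ran from 3.28 through a median of 3.30 to 3.52 in NOD and from 2.99 through 3.39 to 3.67 in NOD.Drak2-/-. All 12 values were below each array's brightest background row, the NOD values spanned a narrow band inside the NOD.Drak2-/- ones, and the difference was 0.02 (95% interval -0.24 to 0.28, adjusted p = 0.964 in limma). Its neighbour on chromosome 12, Cmpk2, encodes a nucleotide kinase that can supply viperin's substrate and had a mean above the brightest background row. Cmpk2 ran from 5.74 through 5.97 to 6.57 in NOD and from 6.32 through 7.12 to 7.81 in NOD.Drak2-/-. All 6 NOD.Drak2-/- arrays lay above the NOD mean, and the ranges met only at the NOD.Drak2-/- array of lowest value. Its difference was 1.01 (95% interval 0.54 to 1.48; adjusted p = 0.332 in limma, which missed the threshold).

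Of the synthetase genes among the 10 effectors, Oas1a had the greatest difference. Oas1a, which encodes an active synthetase, ran from 4.36 through a median of 4.73 to 5.18 in NOD and from 3.94 through 5.30 to 5.69 in NOD.Drak2-/-. NOD.Drak2-/- replicates 1, 3 and 4 were above all NOD arrays and replicate 7 was the lowest of the 12, so the spread in NOD.Drak2-/- (SD 0.69) took in the NOD range. The difference was 0.35 (95% interval -0.20 to 0.91, adjusted p = 0.674 in limma). Oas2 and Oas3 encode larger synthetases built from repeated synthetase units. Oas2 ran from 3.69 through 4.22 to 4.64 in NOD and from 3.81 through 3.90 to 4.84 in NOD.Drak2-/-. Only NOD.Drak2-/- replicate 3 lay above the NOD mean, and the difference was -0.15 (95% interval -0.57 to 0.28). Oas3 ran from 3.57 through 3.90 to 4.28 in NOD and from 3.46 through 4.05 to 4.98 in NOD.Drak2-/-, with replicates 1 and 2 above all NOD arrays. Its difference was 0.19 (95% interval -0.28 to 0.66), and it turned to -0.11 without those 2 arrays.

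The synthetase-like genes differed little. Oasl1, which in the mouse has no synthetase activity and restrains translation of Irf7 mRNA, ran from 3.12 through 3.32 to 4.07 in NOD and from 2.93 through 3.45 to 4.23 in NOD.Drak2-/-. The 2 highest values were NOD.Drak2-/- replicate 2 and NOD replicate 6, 1 in each genotype, and the difference was 0.06 (95% interval -0.38 to 0.50). Oasl2, a synthetase with ubiquitin-like domains, ran from 4.41 through 4.71 to 5.65 in NOD and from 4.25 through 4.88 to 5.67 in NOD.Drak2-/-. The ranges nearly coincided, and the difference was 0.08 (95% interval -0.45 to 0.61), which turned to -0.11 without the 2 arrays of brightest background.

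The effectors had larger SDs over the NOD.Drak2-/- arrays than over the NOD arrays, a difference in spread that was not tested. The SD was larger in NOD.Drak2-/- for 10 of 10 genes, as it was for 61.2% of all genes. The median SD was 0.48 in NOD.Drak2-/- and 0.34 in NOD (0.26 and 0.22 over all genes). For Ifit2 (0.354 and 0.342) and Oas2 (0.399 and 0.386) the SDs were nearly equal. The genes are not independent counts, as each correlated with the mean of the others, from r = 0.23 for Rsad2 to 0.92 for Ifit1. The same arrays recurred at the extremes. NOD.Drak2-/- replicate 3 was among the 3 highest of 12 arrays for 7 genes, replicate 1 for 6 and replicate 4 for 5. NOD.Drak2-/- replicate 5 was among the 3 lowest for 7 genes and replicate 7 for 4, and each of these was among the 3 highest for 0 genes. Of the NOD arrays, replicate 3 was among the 3 lowest for 5 genes and replicate 4 for 4, and replicate 2 was among the 3 highest for 4. Averaged over the 10 genes, NOD.Drak2-/- replicates 1 to 5 and 7 gave 5.05, 4.85, 5.12, 4.95, 4.32 and 4.31, and NOD replicates 1 to 6 gave 4.52, 4.94, 4.43, 4.53, 4.49 and 4.83. The NOD.Drak2-/- arrays thus lay on both sides of the NOD range, 3 above it and 2 below it, and replicate 2 lay within it.

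**Figure D2:**
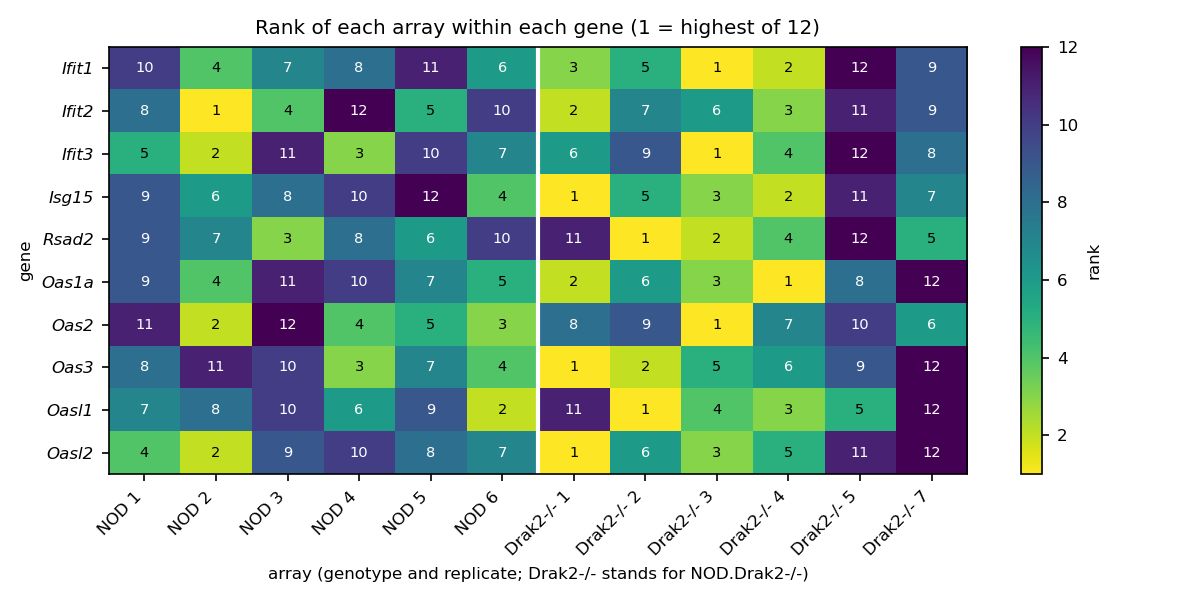
Rank of each array (columns, by genotype and replicate) within each of the 10 effector genes (rows), from 1 for the highest to 12 for the lowest value. NOD.Drak2-/- replicate 3 holds rank 1 for 3 genes, and NOD.Drak2-/- replicates 5 and 7 hold rank 12 for 3 and 4 genes.

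Measures of quality and markers of other cells are given beside this order, and no link between them was tested. The ranges of cell markers are per genotype and show no order of arrays. The brightest background row was 6.52, 6.77, 5.82, 5.55, 6.07 and 5.78 in NOD.Drak2-/- replicates 1 to 5 and 7, so arrays of high effector level had both bright and dim background rows. Of the 10 stress and dissociation genes, among them Fos, Jun and Junb, 8 had means above background, and their mean in NOD.Drak2-/- was 7.80 in replicate 1, 7.87 in replicate 2 and 7.68 in replicate 3. It was 7.21 in replicate 4, 7.29 in replicate 5 and 7.30 in replicate 7, against 7.27 to 7.66 in NOD. Their part in the effector levels was not tested. Plasmacytoid dendritic cells, the main makers of type I interferon, have Siglech as a defining marker, and it averaged 4.26 in NOD and 4.00 in NOD.Drak2-/-, in the background range. The brightest of their markers, Tlr7, averaged 9.08 ± 0.39 and 9.54 ± 0.44, and Pacsin1 8.92 and 9.03, and the part of these cells in the effector levels was not tested. The mean of the 8 measured markers of these cells, 4 of which were above background, ran from 5.55 to 5.77 in NOD and from 5.54 to 5.86 in NOD.Drak2-/-. Of the macrophage and dendritic cell markers 0 of 11 had a mean above background, and their mean ran from 4.06 to 4.39 in NOD and from 4.09 to 4.47 in NOD.Drak2-/-. Of the B cell markers 1 of 7 did, Cd79b, and their mean ran from 4.92 to 5.14 and from 4.78 to 5.49. Natural killer cell markers (1 of 4 above background) ran from 3.57 to 4.06 and from 3.66 to 4.58, CD8 markers (1 of 2) from 5.83 to 6.43 and from 5.97 to 6.56, and stromal markers (3 of 7) from 5.29 to 5.65 and from 5.17 to 5.36.

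Some genes outside the pathway list followed the effectors from array to array. Deviations from the genotype mean were compared with the mean deviation of the 10 effectors over the 12 arrays, for 8083 genes above background. The 6 genes with the highest Pearson correlation were the MHC class I gene H2-Q5 (r = 0.93, Spearman rho = 0.86), Avp (r = 0.91, rho = 0.94), Prtn3 (r = 0.89, rho = 0.94), Abcb9 (r = 0.89, rho = 0.95), the MHC class I gene H2-T10 (r = 0.89, rho = 0.76) and Snph (r = 0.89, rho = 0.87). These genes were picked for that correlation, so no p is given, and the arrays share normalization. Without NOD.Drak2-/- replicates 5 and 7, the arrays farthest from the median, r was 0.84 for H2-Q5, 0.88 for Avp and 0.73 for Snph. Between the genotypes these 6 genes had adjusted p-values from 0.483 to 0.924 in limma.

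Other genes of the interferon pathway lay higher in NOD.Drak2-/- more often than lower, without passing the test. Of 69 listed genes 64 were measured, and the difference was positive for 54 of these and had a median of 0.19. Over all genes 0 of 64 passed in limma, with a smallest adjusted p of 0.332. At an unadjusted p under 0.05 there were 20 of 64 with a positive difference and 0 with a negative one. Of the 45 with a mean above the brightest background row 18 met that level with a positive difference, where 5.68% of all genes so bright did. Of the 19 at or below that row 2 did, where 2.36% of all genes so dim did. The effectors described above, all of them that dim, had 1 in 10. The list overlaps one already known to lie higher in these arrays, so these counts are no independent evidence of direction. Without NOD.Drak2-/- replicates 1 and 2 there were 15 higher at that level, and the share of all genes in that fit is not given here.

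**Figure D3:**
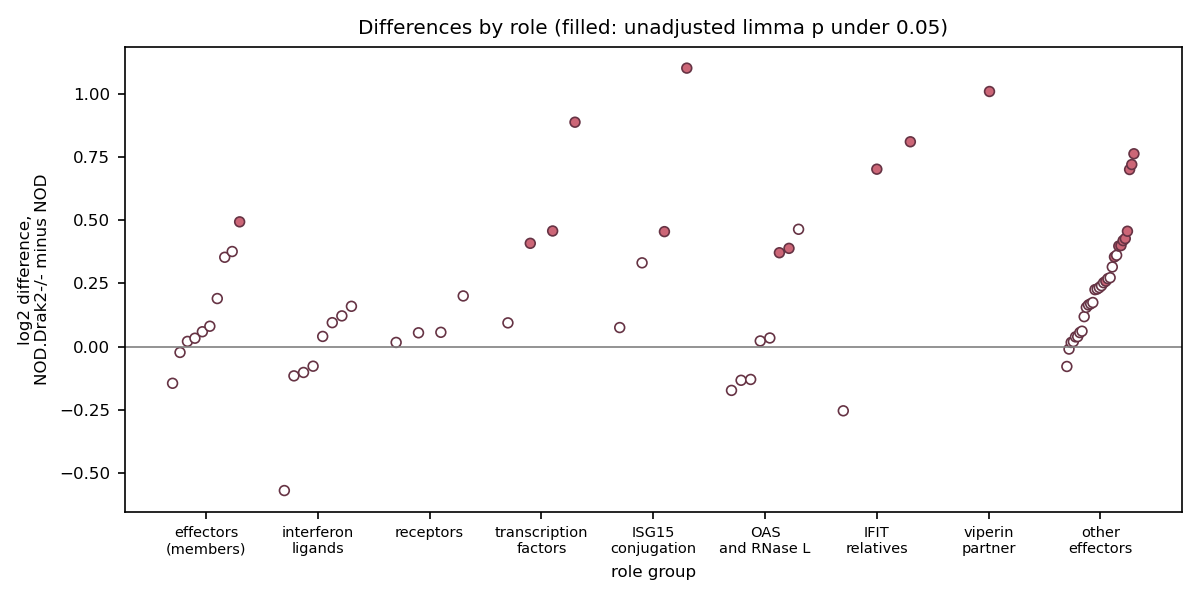
Log2 difference, NOD.Drak2-/- minus NOD, of each gene by its role in the interferon pathway; filled points have an unadjusted limma p under 0.05. Interferon ligands and receptors have no filled point, and the filled points of every other group are above 0 (9.43% of all genes were at that level in either direction).

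Ligand and receptor genes had no member at an unadjusted p under 0.05, a level that 9.43% of all genes met in either direction. With so few genes, 0 is close to that share. Of 8 ligand genes 4 had a positive and 4 a negative difference, and 7 were in the background range. Ifng, the type II interferon gene, ran from 5.41 through 5.78 to 6.17 in NOD and from 4.09 through 5.18 to 6.37 in NOD.Drak2-/-, and differed by -0.57 (95% interval -1.18 to 0.05, adjusted p = 0.551 in limma). Ifnk differed by 0.16. All 4 receptor genes were above background with positive differences under 0.21, among them Ifngr1 at 0.20 (adjusted p = 0.706 in limma) and Ifnar2, the type I interferon receptor subunit, at 0.05.

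All 4 transcription factors measured had positive differences, and 0 passed the test. At an unadjusted p under 0.05 there were 3, all positive (5.68% of all genes above background were). The other one, Irf1, named after its values were seen, differed by 0.09, with 3 of 6 NOD.Drak2-/- arrays above the NOD mean. Irf7, which drives type I interferon genes, ran from 6.24 through a median of 6.90 to 7.69 in NOD and from 6.74 through 7.86 to 8.69 in NOD.Drak2-/-, with 5 of 6 arrays above the NOD mean. Irf9, the DNA-binding subunit that joins STAT dimers at the ISRE, ran from 8.17 through 8.23 to 8.52 in NOD and from 8.48 through 8.84 to 8.94 in NOD.Drak2-/-. Its ranges met only at their ends. The differences were 0.89 (adjusted p = 0.469 in limma) for Irf7 and 0.46 (adjusted p = 0.413) for Irf9.

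Enzymes that attach ISG15 to proteins or remove it were for the most part above background. Of the 4, 3 had a mean above the brightest background row, and all 4 had positive differences. Uba7, the activating enzyme of ISG15 conjugation, ran from 8.79 through 9.06 to 9.39 in NOD and from 9.41 through 9.49 to 9.75 in NOD.Drak2-/-. The 6 NOD.Drak2-/- values lay wholly above the 6 NOD values, the only gene of the 64 for which the genotypes did not overlap (0.513% of all genes did not). Its difference was 0.45 (95% interval 0.21 to 0.70, adjusted p = 0.413 in limma). Usp18, which removes ISG15 and restrains the interferon receptor, ran from 5.98 through 6.94 to 7.47 in NOD and from 7.29 through 8.11 to 8.42 in NOD.Drak2-/-. The difference was 1.10 (95% interval 0.56 to 1.64) and missed the threshold (adjusted p = 0.388 in limma). NOD.Drak2-/- replicates 1 to 4 gave 8.42, 8.19, 8.13 and 8.09, above all NOD arrays, and replicates 5 and 7 gave 7.29 and 7.42, inside the NOD range. Replicate 5 was also the lowest NOD.Drak2-/- array for Isg15 and Ifit1.

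Relatives of the effectors had differences on both sides of those of the effectors themselves. Ifit1bl1, an IFIT gene of the same cluster with the ISRE core in both of its RefSeq promoter windows, ran from 7.07 through 7.70 to 8.42 in NOD and from 7.76 through 8.49 to 9.09 in NOD.Drak2-/-. All 6 NOD.Drak2-/- arrays lay above the NOD mean, and the difference was 0.81 (95% interval 0.28 to 1.34, adjusted p = 0.469 in limma). Ifit1bl2, in the background range, shares its start region with Ifit1 on the opposite strand and differed by 0.70 (95% interval 0.18 to 1.22), beside 0.38 for Ifit1. Ifit3b, also dim, differed by -0.25. Of 8 measured Oas1 relatives and partners of RNase L, 2 were at an unadjusted p under 0.05, both positive and both above background. Of all genes 3.74% met that level with a positive difference, and 5.68% of those above background did. Oas1b, the gene behind inherited resistance to flaviviruses in mice, differed by 0.39 (95% interval 0.08 to 0.70, adjusted p = 0.485 in limma) and Oas1c by 0.37 (95% interval 0.04 to 0.70), beside 0.35 for Oas1a. Whether these differences exceed those of the effectors was not tested, and probes of the closely related Oas1 genes may share signal.

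Of 32 other effectors measured, 30 had positive differences, as did 45.9% of all genes. At an unadjusted p under 0.05 there were 10, all positive. That level with a positive difference was met by 3.74% of all genes and by 5.68% of those above background, as 27 of the 32 were. The ADP-ribosyltransferase gene Parp14 ran from 6.45 through 6.49 to 6.85 in NOD and from 6.79 through 7.02 to 7.22 in NOD.Drak2-/-, with 1 array of each genotype in the overlap. Its difference was 0.46 (95% interval 0.23 to 0.68, adjusted p = 0.393 in limma). Mx2, an antiviral dynamin-like GTPase, differed by 0.72 (95% interval 0.27 to 1.17, adjusted p = 0.469) and had a mean in the background range.

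**Figure D4:**
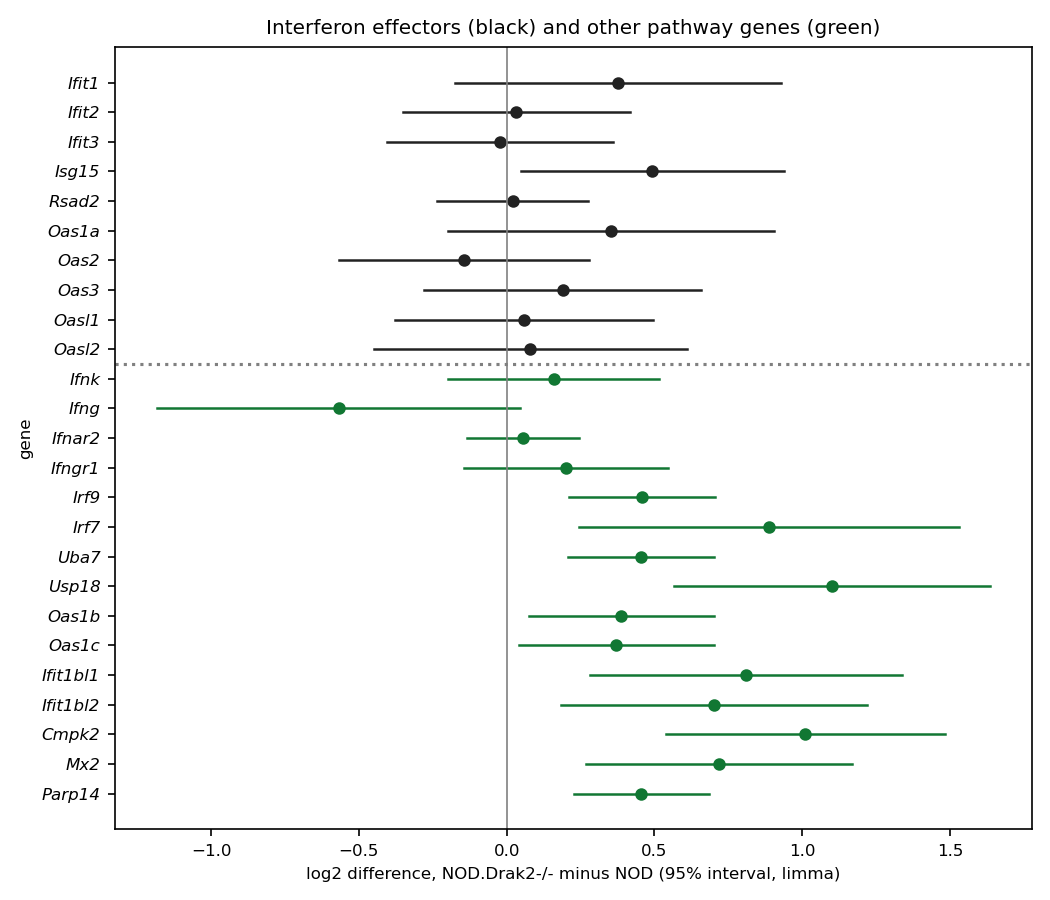
Log2 difference, NOD.Drak2-/- minus NOD, with its 95% interval from limma, for the 10 effector genes (black) and the named genes of the rest of the pathway (green). Among the effectors only the interval of Isg15 lies above 0, and Cmpk2 and Usp18 have the largest differences among the others.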

How the data were processed

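Total RNA of sorted lymph node regulatory T cells was measured on 12 arrays. The deposited values are on a log2 scale and, per the submitters' processing notes, were made with RMA (background correction, normalization between arrays, 1 value per row) and the R package oligo. No version of either is stated in the sources used here. Of 29129 rows 19572 had 1 gene symbol in the platform annotation, and the brightest row per gene left 19505 genes. NOD.Drak2-/- was compared with NOD in limma 3.58.1 (R 4.3.3, lmFit and eBayes, no covariate). Benjamini-Hochberg adjustment covered all genes, with a threshold of 0.05 and no filter on dim genes. The fit was also run on simulated data with independent noise per gene, which cannot show how it does on genes that vary together. The difference between the genotype means of single genes was also put to a two-sided exact permutation test over 924 regroupings, whose smallest p is 0.00216. No counts underlie array values, so the number of arrays limits precision.

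The effectors and lists were chosen with earlier results of these data known. Named were all effectors, the 2 genes of smallest p per role group (more than 2 only past the threshold), the brightest or defining markers, and the 6 genes of highest correlation. Alternatives covered scaling, dim genes, rows per gene, eBayes settings, replicate numbers and each array left out. Same-numbered arrays of the 2 genotypes were not paired by the labels. Protein sequences were not used here.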

Additional observations from a re-analysis of the deposited data

Results flagged for a closer look

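In 3 cases 1 array stood apart from the other 5 of its genotype by Dixon's test at the 95% level, among 52 groups of 6 arrays examined, and chance flags about 1 group in 20. Rsad2 was 3.52 in NOD replicate 3, where the other NOD arrays lay between 3.28 and 3.32, all in the background range. Oas2 was 4.84 in NOD.Drak2-/- replicate 3, where the others lay between 3.81 and 3.91, and this array was also the highest of 12 for Ifit1 and Ifit3. Oasl1 was 4.07 in NOD replicate 6, where the others lay between 3.12 and 3.37.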

How the results depend on the processing

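No effector passed an adjusted p of 0.05 in limma under any alternative that gave a value, and the smallest adjusted p was 0.409 (Isg15 without NOD.Drak2-/- replicate 4). At an unadjusted p under 0.05 there was 1 effector in the reported fit and from 0 to 2 with 1 array left out: 0 when the array was any of NOD replicates 1, 3, 4 and 5 or any of NOD.Drak2-/- replicates 1, 3 and 4, and 2 without NOD.Drak2-/- replicate 5 (Isg15 and Ifit1) or 7 (Isg15 and Oas1a). There were 0 without the 2 arrays of brightest background, and 3 (Ifit1, Isg15 and Oas1a) over replicates 1 to 5, both with the replicate block and without it. Those replicates leave out NOD replicate 6 and NOD.Drak2-/- replicate 7. Same-numbered arrays correlated between -0.29 and 0.15 in their deviations. The labels do not say what a number marks, and these values cannot settle whether it marks a shared litter, batch or day. The 4 genes past the threshold over the whole table became 0 with the replicate block, 2 over the same arrays without it, 2 without the 2 arrays of brightest background, and 1 to 2 with 1 array left out. The number of effectors with a positive difference fell from 8 to 4 without those 2 arrays. Signs turned for Ifit3 when arrays were centred (0.043), quantile normalized again (0.0098), over replicates 1 to 5 with or without the block (0.00996), and without the 2 brightest-background arrays (0.023). Without those 2 arrays they also turned for Ifit2 (-0.055), Rsad2 (-0.0084), Oas3 (-0.11), Oasl1 (-0.026) and Oasl2 (-0.11). With 1 array left out, Ifit2 ran from -0.061 to 0.14, Ifit3 from -0.15 to 0.061, Rsad2 from -0.042 to 0.093, Oasl1 from -0.095 to 0.19 and Oasl2 from -0.078 to 0.25. The causes were not tested. Ifit1, Isg15 and Oas1a kept a positive and Oas2 a negative difference in all 19 alternatives. With 1 array left out, Ifit1 ran from 0.21 (without NOD.Drak2-/- replicate 3) to 0.55 (without 5), Isg15 from 0.37 to 0.65, Oas1a from 0.24 (without 4) to 0.59 (without 7) and Oas2 from -0.31 (without 3) to -0.053 (without NOD replicate 2). Oas3 ran from 0.015 without NOD.Drak2-/- replicate 1 to 0.32 without replicate 7. The median difference of the effectors was 0.14 with arrays centred, 0.11 quantile normalized again and 0.25 over replicates 1 to 5 with or without the block. The filter on dim genes removed all 10 effectors, so it gives no value for them. Of the other pathway genes, 15 to 27 were higher at an unadjusted p under 0.05 over the alternatives, with 0 past the threshold in limma. The share of all genes at that unadjusted level is given for the reported fit only. The counts under the alternatives, for effectors and other pathway genes, therefore cannot be set beside such a share.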
